A study of Danaus plexippus with 32 samples.

Results

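Of 10412 genes expressed in wild-type brains of the monarch butterfly, *Danaus plexippus*, 61 were selected on their measured differences: higher in *Clk* knockouts than in wild-type by a rule that *Cry2* knockouts did not meet, and without a clear daily rhythm in wild-type. The files hold 15130 genes in all, and expressed ones had an FPKM (sequenced fragments relative to transcript length and to library depth) of 3 or more in any wild-type library. Values were taken as log2(FPKM + 1) minus the median of each library over the expressed genes, called centred values below. The rule used 7 pairs of a knockout and a wild-type library with the same Zeitgeber time (ZT, in hours after lights on) and replicate number. It asked that all 7 differences be above 0 in *Clk* knockouts with a mean of at least 0.5, that *Cry2* knockouts fail this, and that a cosine and sine of 24 h over 15 wild-type libraries give an F-test p of at least 0.005. The ZT22 replicate 2 libraries entered neither the pairs nor the rhythm test. All 7 *Clk* differences were above 0 in 3.66% of expressed genes, and the whole *Clk* part was passed by 71 genes (0.682%), of which 9 also passed in *Cry2* knockouts and 1 was left out for its wild-type rhythm. The same criteria were passed by 101 genes (0.97%) in *Cry2* knockouts.

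The libraries held polyA+ RNA of 3 pooled brains each, dissected free of eye photoreceptors from adults kept for at least 7 days in 15 h of light and 9 h of darkness (LD). Wild-type was sampled at 8 times, every 3 h from ZT1 to ZT22, and *Cry2* knockout and *Clk* knockout adults at 4 of these, ZT4, ZT10, ZT16 and ZT22. There were 2 libraries per genotype and time, 32 in all, with males in replicate 1 and females in replicate 2 throughout, per the labels. Each knockout was represented by a single strain per the study, and their alleles are not given in the sources used here. In whole brains fewer cells of a type and less RNA per cell cannot be told apart. Libraries were sequenced in pools of 16, and how the genotypes were divided over the pools is not given in the sources used here, so that a pool and a genotype cannot be told apart.

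In the clock of the monarch, CLK and its partner BMAL1 form a transcriptional activator that switches on genes such as *Per*, *Tim* and *Cry2*, and the CRY2 protein in turn represses that activator. Loss of CLK therefore removes the activator, and loss of CRY2 removes the repressor.

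Reads behind the values, taken from the width of the 95% interval that the authors' software gave each FPKM, summed to between 2848069 and 4456322 per wild-type library, 3004498 to 4126236 per *Cry2* knockout library and 3218264 to 3992817 per *Clk* knockout library. *Cry2* RNA (DPOGS208079) was present in *Cry2* knockouts, at 22.1 to 23.9 FPKM against 18.5 to 34.6 in wild-type, so its level does not check those labels, and *Clk* RNA was not analysed here. *Per* (DPOGS203908), a repressor gene that CLK activates, lay between 3.49 and 5.80 FPKM in the 8 *Clk* knockout libraries and between 8.31 and 45.7 in the 16 wild-type libraries, without overlap. Wild-type ZT22 replicate 2 stood apart. Its deviation from the mean of the other wild-type libraries had an SD over genes of 0.70 on the log2 scale, against 0.41 to 0.49 in the others, and it held the lowest wild-type FPKM of 19 of the 61 genes. In *Clk* knockout ZT4 replicate 1 the median gene was low, by 0.373 against its wild-type partner on the log2 scale before centring, and without centring the rule gave 37 genes, of which 33 are among the 61.

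The 61 genes were mostly of low to moderate abundance. Their mean wild-type FPKM ranged from 1.12 to 738 with a median of 6.67, against a median of 17.4 over all expressed genes, and 13 of them had a mean under 3. That share was 21.3%, against 7.83% of all expressed genes. A median of 33.4 reads per library stood behind a value, and 10 of the genes had under 10 reads. The interval from counting alone covered ±34.6% of the value in the median gene, against ±19.2% over all expressed genes. Their spread was wider too: the SD over 15 wild-type libraries had a median of 0.39 on the log2 scale, against 0.16.

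The differences that chose the genes are given here as a description. The mean of the 7 pairs in *Clk* knockouts ranged from 0.51 to 1.7996 with a median of 0.77, and it was at least 1 in 15 genes. The smallest of the 7 differences was under 0.1 in 16 genes, and all 7 were at least 0.5 in 8. The median difference was 0.74 at ZT4, 0.88 at ZT10, 0.72 at ZT16 and 0.65 at ZT22, where it rests on the replicate 1 pair alone. Just inside the limit on the mean were DPOGS204654 (0.508) and DPOGS203532 (0.513), and just outside it were DPOGS214315 (0.498) and DPOGS215354 (0.492). Just inside the limit of 0.005 on the rhythm were DPOGS214289, at 0.00551, and DPOGS205266, at 0.00911. The single gene outside it was DPOGS200764, a homolog of *wun* (a lipid phosphate phosphatase in *Drosophila*), at 0.000152 and with a mean *Clk* difference of 0.89. With limma over 8 *Clk* knockout and 8 wild-type libraries at the same times, 36 of the 61 genes were called higher at an adjusted p (Benjamini-Hochberg over all expressed genes) of 0.05 or less, where the background over all expressed genes was 1.26%. All 61 were higher at an unadjusted p under 0.05 (background 9.24%). This contrast is the one the rule used, and nothing is read from the count.

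**Figure D1:**
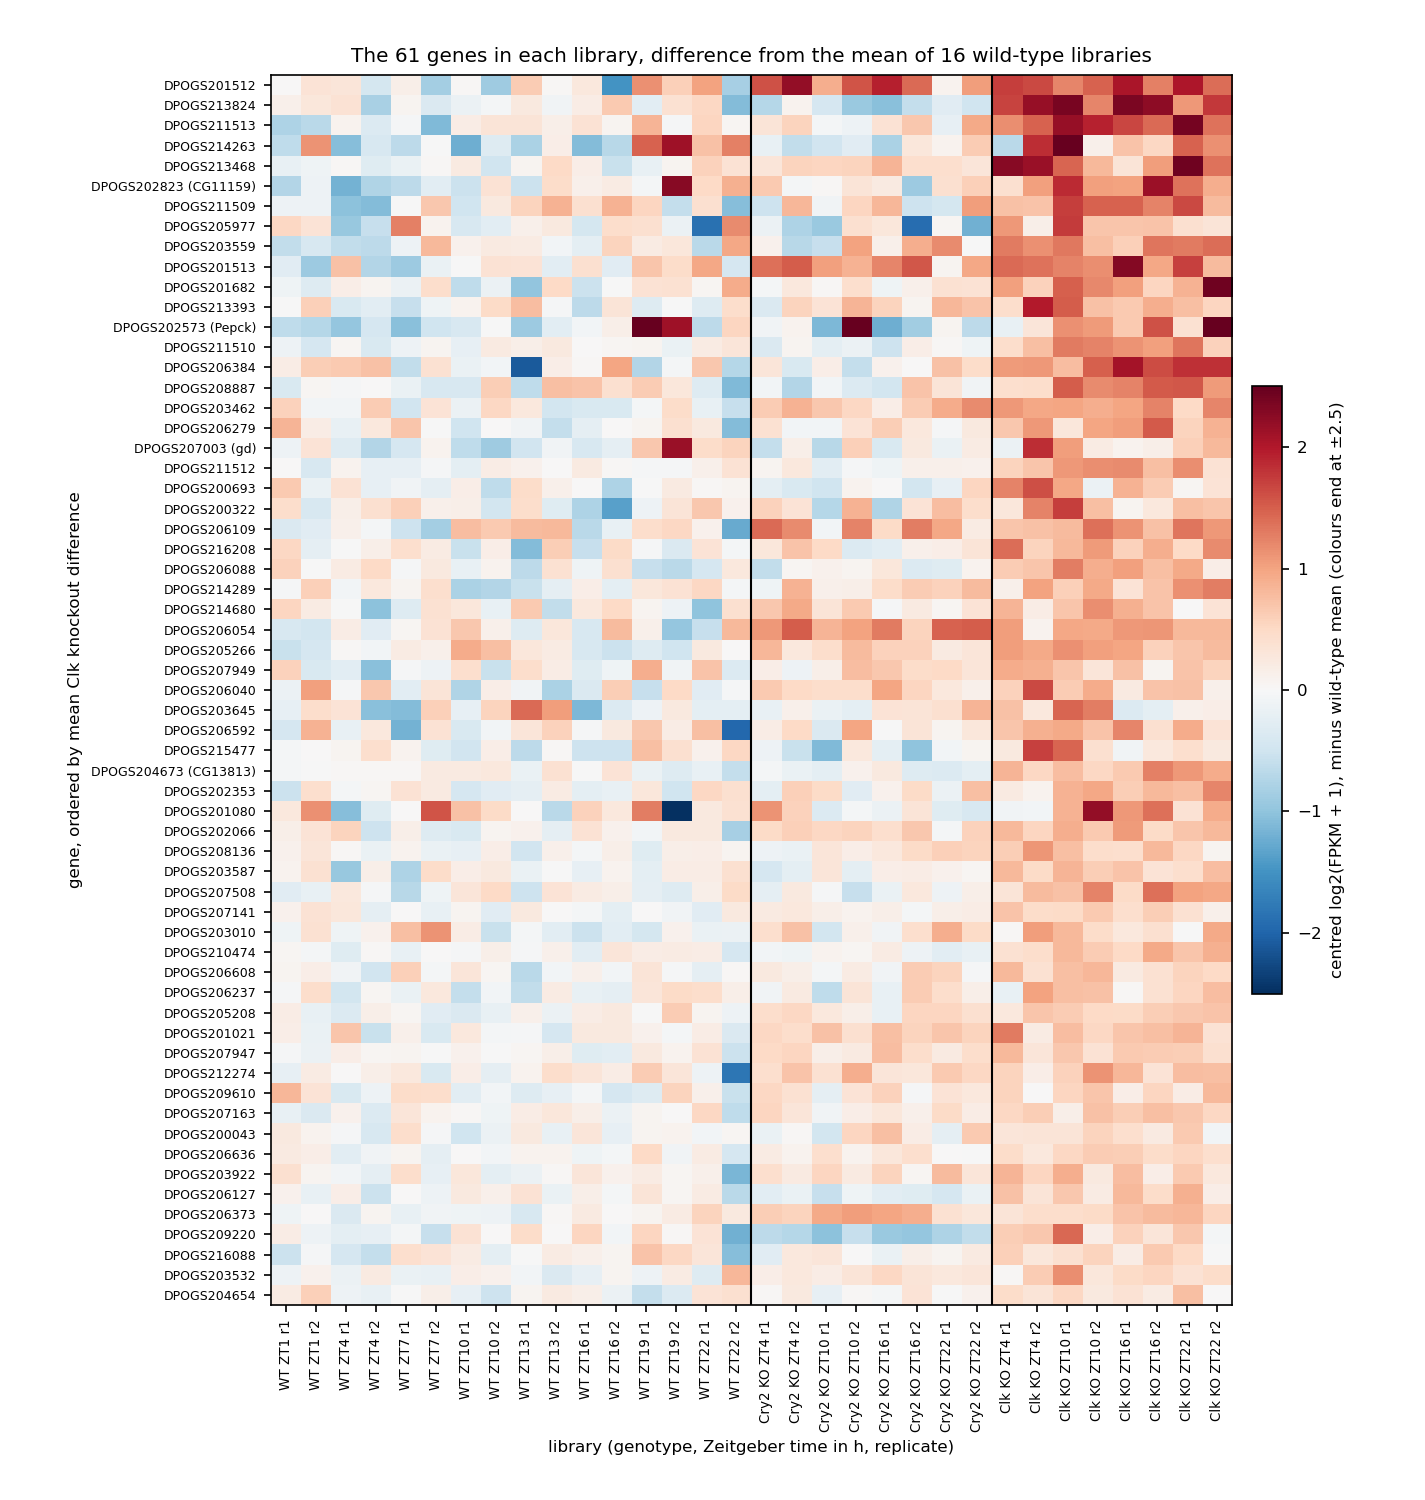
Each row is 1 of the 61 genes and each column 1 of the 32 libraries, and colour gives the centred log2(FPKM + 1) minus the mean of the gene over 16 wild-type libraries. The *Clk* knockout columns at the right are mostly red, as the rule asks, and the *Cry2* knockout columns in the middle are mixed. Some wild-type libraries, among them both replicates at ZT19 and ZT22 replicate 2, are dark for some genes.

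The heat map of all members by library shows that single libraries differ among genes. In 23 of the 61 genes the highest wild-type library was at ZT19 or ZT22, a count that has no background share and no test. At the level of whole groups, the 8 *Clk* knockout libraries lay above all 8 wild-type libraries at the same times in 10 of the 61 genes on the centred scale, against a background of 0.346%, and above all 16 wild-type libraries in 6, against 0.144%. The rule used 7 of these 8 pairs, so that these counts are again descriptions.

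DPOGS213824 (scaffold DPSCF300183, 262584 to 263446 in assembly v3) was separated from every other library in *Clk* knockouts. Its FPKM was 0.504, 2.61 and 4.38 (lowest, median and highest) in the 16 wild-type libraries, 6.17, 12.2 and 16.6 in the 8 *Clk* knockout libraries, and 0.600, 1.18 and 2.47 in the 8 *Cry2* knockout libraries. All *Clk* knockout libraries lay above all others, and *Cry2* knockouts overlapped wild-type at its lower end. The *Clk* knockout difference was 1.91 on the log2(FPKM + 1) scale (standard error 0.25). Adding 1 before the logarithm understates changes at such low FPKM.

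DPOGS201512 had the largest mean of the 7 pairs, 1.7996, but not a pattern of *Clk* knockouts alone. Its FPKM was 0.855, 4.55 and 10.1 (lowest, median and highest) in wild-type, 9.94, 13.5 and 20.6 in *Clk* knockouts and 4.30, 12.2 and 21.9 in *Cry2* knockouts. The knockouts overlapped almost fully with each other, and 6 of 7 *Cry2* pairs were above 0 with a mean of 1.57. Next to it on scaffold DPSCF300006 lies another of the 61 genes, DPOGS201513, with a mean of 1.24 in *Clk* and 0.88 in *Cry2* knockouts. Both span about the same length (1845 and 1854 bases), rest on medians of 8.5 and 10 reads, and had exactly the same FPKM in 9 of 32 libraries. The authors kept 1 location per read, so that reads of near-identical copies could be split between them, and the values of this pair are uncertain as separate genes.

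Among the named genes, DPOGS202823 (a homolog of *Drosophila* CG11159) was abundant. Its FPKM was 126, 269 and 1436 (lowest, median and highest) in wild-type, 292, 603 and 1319 in *Clk* knockouts and 139, 339 and 420 in *Cry2* knockouts. The highest wild-type value, at ZT19 replicate 2, exceeded every *Clk* knockout library, so the groups overlap over the whole day, and the *Clk* knockout difference over the 4 shared times was 1.27 (standard error 0.23).

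DPOGS214263 was high in both wild-type replicates late at night, at 33.3 and 55.6 FPKM at ZT19 and 21.1 and 27.4 at ZT22. ZT1 replicate 2 was also high, at 26.8. It had 4.52, 8.81 and 55.6 FPKM in wild-type (lowest, median and highest), 5.08, 24.3 and 83.8 in *Clk* knockouts and 6.09, 9.13 and 18.1 in *Cry2* knockouts, so that the groups overlapped almost over their whole range. The *Clk* knockout difference of 1.35 (standard error 0.43) was not called, with an adjusted p of 0.107 (limma).

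*Pepck* (DPOGS202573), which encodes phosphoenolpyruvate carboxykinase, the enzyme that commits oxaloacetate to gluconeogenesis, had single libraries far above the rest. Its FPKM was 8.97, 14.3 and 273 in wild-type, 12.7, 35.8 and 337 in *Clk* knockouts and 7.49, 14.0 and 124 in *Cry2* knockouts (lowest, median and highest). The high wild-type values were 273 and 89.4 at ZT19 in replicates 1 and 2, a time at which no knockout was sampled. The 337 was in *Clk* knockout ZT22 replicate 2, and neither it nor the ZT19 libraries entered the 7 pairs. In those pairs *Clk* knockouts had 12.7 to 62.6 FPKM and their wild-type partners 9.34 to 21.7, with every difference above 0 as the rule asks. Its *Clk* knockout difference of 1.35 had a standard error of 0.41 and an adjusted p of 0.098 (limma), so it was not called.

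The *gd* homolog (DPOGS207003), a serine protease of the dorsal-ventral patterning cascade in the *Drosophila* embryo, likewise overlapped between groups, at 1.35 to 18.8 FPKM in wild-type and 1.98 to 13.8 in *Clk* knockouts. Its wild-type values were 5.75 and 18.8 at ZT19 and 5.23 and 4.97 at ZT22, above every other wild-type library (at most 4.54). DPOGS204673 (a homolog of *Drosophila* CG13813) did not overlap, at 2.05, 3.96 and 5.57 FPKM in wild-type (lowest, median and highest), 5.71, 6.81 and 11.2 in *Clk* knockouts and 2.57, 3.15 and 4.71 in *Cry2* knockouts. These 4 homologs are also the members listed in the table of 431 rhythmic genes of the study (6.56% of the 61 genes and 0.928% of the table, background 4.14%), since the rhythm limit of the rule is on another test. Their wild-type p in that test was 0.0389 for CG11159, 0.0504 for *Pepck*, 0.0201 for *gd* and 0.0322 for CG13813. "Non-rhythmic" thus means not past this limit. Of the 163 rhythmic genes that the study lists as altered in *Clk* knockouts, 1 is among the 61 (0.613% of that list). Of the 126 it lists for *Cry2* knockouts, 0 are. Both lists rest on a test of rhythm rather than of level, and the counts have no background share. A p under 0.05 was found in 9 of the 61 genes (14.8%) and in 12.2% of all expressed genes, which include those that the limit removes. The rule used this p, and nothing is read from the shares.

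**Figure D2:**
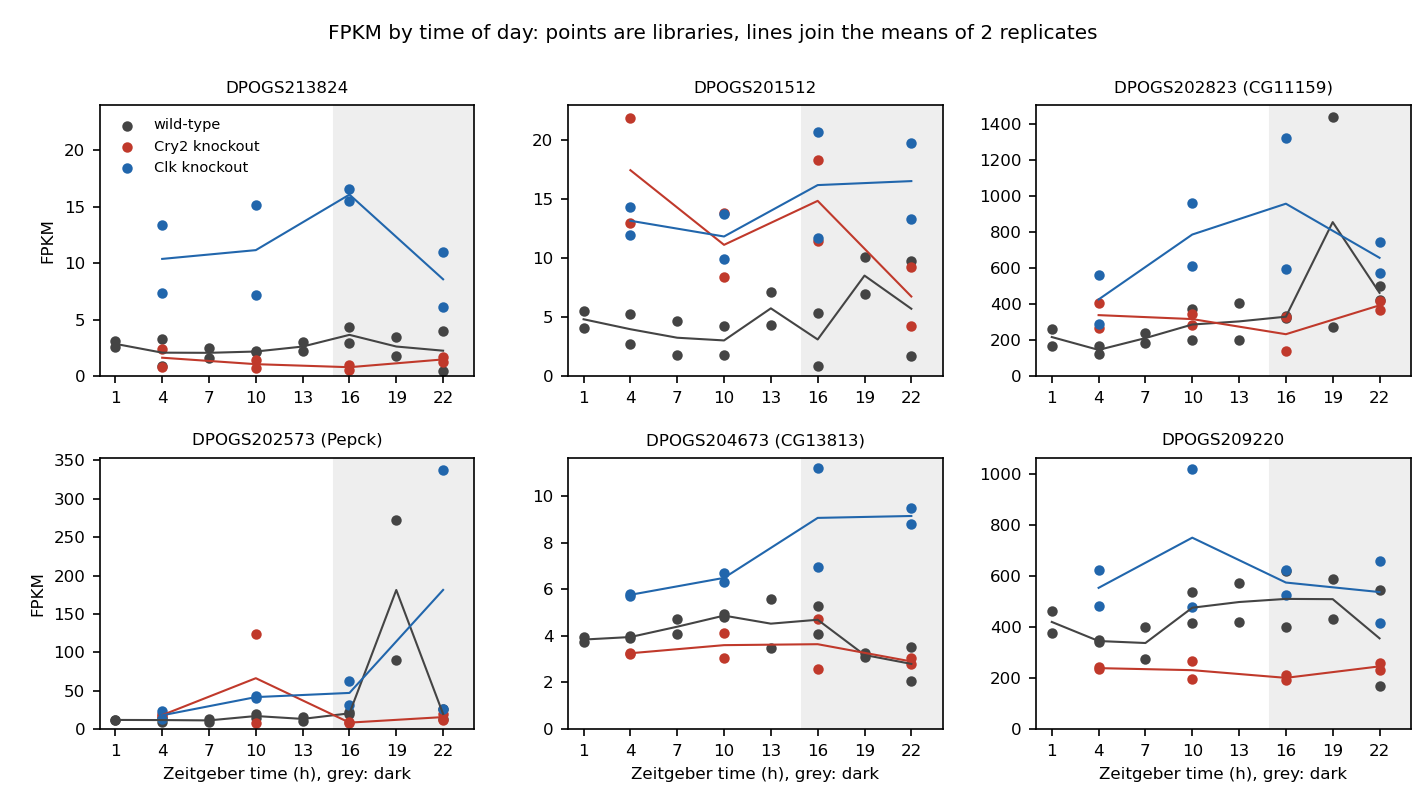
FPKM (vertical axis, from 0) against Zeitgeber time in h (horizontal axis, grey is darkness) for 6 of the genes, with 1 point per library and lines through the means of 2 replicates. DPOGS213824 and CG13813 are higher in *Clk* knockouts at every sampled time, DPOGS201512 is also high in *Cry2* knockouts, the wild-type peaks of *Pepck* (273) and CG11159 (1436) are at ZT19, and the DPOGS209220 means are lowest in *Cry2* knockouts.

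Next come the genes with the highest mean wild-type FPKM. DPOGS205266, a locus of 202 bases for which FPKM depends on a very short effective length, had 474, 685 and 1358 FPKM in wild-type (lowest, median and highest) and 1079, 1277 and 1477 in *Clk* knockouts, a difference of 0.78 (standard error 0.12). Both wild-type libraries at ZT10, at 1358 and 1189 FPKM, lay above all other wild-type libraries, and *Cry2* knockouts had 793 to 1180. DPOGS207141 had 212, 257 and 330 in wild-type and 293, 331 and 415 in *Clk* knockouts, a difference of 0.54 (standard error 0.11), and 225 to 297 in *Cry2* knockouts. In both genes the groups overlapped. The 2 remaining genes with the highest wild-type means were CG11159 and DPOGS209220.

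In *Cry2* knockouts the 61 genes were not uniformly at wild-type level. The mean of the 7 *Cry2* pairs was at least 0.5 in 12 genes (19.7%, background 2.61%), between 0 and 0.5 in 36 and below 0 in 13, so that 48 genes had a mean above 0 (78.7%, background 53.1%). All 7 *Cry2* differences were above 0 in 3 genes (DPOGS203532, and DPOGS212274 and DPOGS209610, both named after their values were seen, background 6.27%), which failed by their means, while the other 58 had at least 1 pair at or below 0. Both comparisons share their wild-type libraries, and nothing is read from these counts. With limma, 4 of the 61 genes were called higher in *Cry2* knockouts than in wild-type (background 2.06%), which were DPOGS201512, DPOGS203462, DPOGS206054 and DPOGS206373, of which DPOGS203462 and DPOGS206373 are named after their values were seen, and 24 were higher at an unadjusted p under 0.05 (background 11%). "Only" in *Clk* knockouts thus means failing the rule in *Cry2* knockouts, not equality of *Cry2* knockouts and wild-type.

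DPOGS206054 had 63.3, 104 and 132 FPKM (lowest, median and highest) in *Cry2* knockouts, 47.6, 86.8 and 107 in *Clk* knockouts and 24.5, 50.1 and 84.3 in wild-type. The difference of *Clk* from *Cry2* knockouts was -0.30 (standard error 0.17) and was not called. DPOGS209220 went the opposite way in *Cry2* knockouts. It had 191, 234 and 266 FPKM there, 167, 418 and 621 in wild-type and 415, 574 and 1021 in *Clk* knockouts, and none of the 7 *Cry2* pairs was above 0. Only wild-type ZT22 replicate 2, at 167, lay as low as the *Cry2* knockouts.

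The knockouts were also set against each other. This contrast rests on libraries that chose the genes and is a description. The *Clk* knockout value was the higher in 59 of 61 genes by limma, with a median difference of 0.48 against -0.01 over all expressed genes, and 26 were called higher in *Clk* knockouts (background 3.88%) and 0 lower (background 4.52%). At an unadjusted p under 0.05, 39 were higher (background 11.1%), and all 8 pairs of a *Clk* and a *Cry2* knockout library were above 0 in 18 (background 3.46%). All 8 *Clk* knockout libraries lay above all 8 *Cry2* knockout libraries in 12 genes (background 0.788%). For the other 35 genes no difference between the knockouts was called, which does not show that they act alike.

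**Figure D3:**
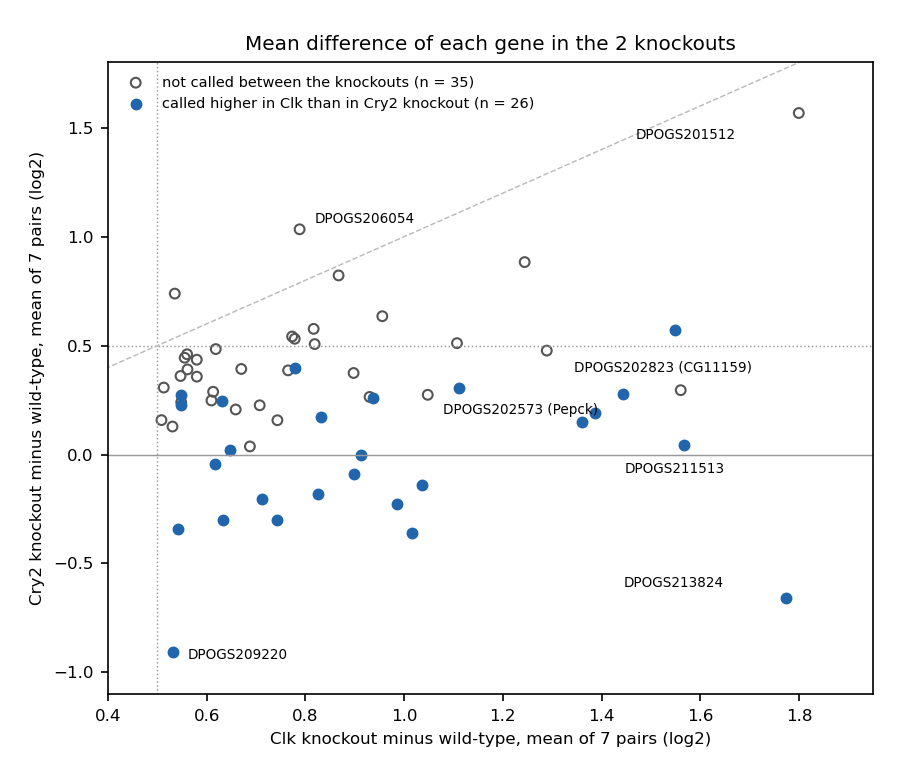
Mean of the 7 differences from wild-type in *Cry2* knockouts (vertical axis, log2) against that in *Clk* knockouts (horizontal axis, log2) for the 61 genes. Filled points are the 26 genes called higher in *Clk* than in *Cry2* knockouts, dotted lines mark the limit of 0.5 and the dashed line equal differences, and DPOGS201512 and DPOGS206054 lie near or above it while DPOGS209220 and DPOGS213824 lie well below 0 on the vertical axis.

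A comparison that no pair of the rule used set *Clk* knockout ZT22 replicate 2, a library of female brains, against the 8 wild-type libraries at ZT1, ZT7, ZT13 and ZT19. These wild-type libraries entered only the filter on low values and the rhythm test. Here 55 of the 61 genes were above the mean of wild-type, against 49.2% of all expressed genes, with a median difference of 0.60 against -0.00496. The library lay above each of the 8 wild-type libraries in 34 genes (55.7%, background 15.1%). With limma 0 of the 61 genes were called after adjustment over all genes (background 0.0672%), where the lowest adjusted p was 0.068, and 22 were higher at an unadjusted p under 0.05 (background 4.65%). Without wild-type ZT13 replicate 2 the count of calls was 1, DPOGS213468. The comparison has a single knockout library, which is assumed to vary like wild-type: the spread behind its standard errors and p-values comes from the 8 wild-type libraries alone, and its time differs from theirs.

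DPOGS213824 stood at 11.03 FPKM in that library, against 1.63 to 3.53 in the 8 wild-type libraries, a difference of 1.71 (standard error 0.28). For DPOGS213468 the values were 10.4 against 2.63 to 5.07, a difference of 1.36 (standard error 0.24). *Pepck* differed most, by 3.75 (standard error 1.64), at 337 FPKM against a median of 12.8. The wild-type library with 273 FPKM is among the 8, and the library exceeded it too.

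Among the 6 genes below the wild-type mean were DPOGS205977 (-0.04, standard error 0.40), DPOGS204654 (-0.03, standard error 0.35) and DPOGS209220 (-0.12, standard error 0.33). DPOGS205977 is a locus of 305 bases with a median of 5 reads. In the ZT22 replicate 2 pair itself, whose wild-type library stands apart, the *Clk* difference was above 0 in 49 of the 61 genes (background 44.1%) and the *Cry2* difference in 41 (background 44.8%), and the *Clk* difference was lowest in DPOGS205977 (-0.87), DPOGS204654 (-0.41) and DPOGS203532 (-0.36).

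The corresponding *Cry2* knockout library, set against the same 8 wild-type libraries, was above their mean in 47 of the 61 genes (background 50.3%), with a median difference of 0.23, and above each of them in 15 (background 13.9%). Of the 61 genes, 0 were called by limma (background 0.0384%) and 5 were higher at an unadjusted p under 0.05 (background 3.52%). Set directly against this *Cry2* knockout library, the *Clk* knockout library of the same time and sex was the higher in 47 genes, against 49.4% of all expressed genes, with a median difference of 0.34, and by at least 0.5 in 23 (37.7%, background 6.96%). Neither library entered the rule, and a single pair allows no test over samples.

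**Figure D4:**
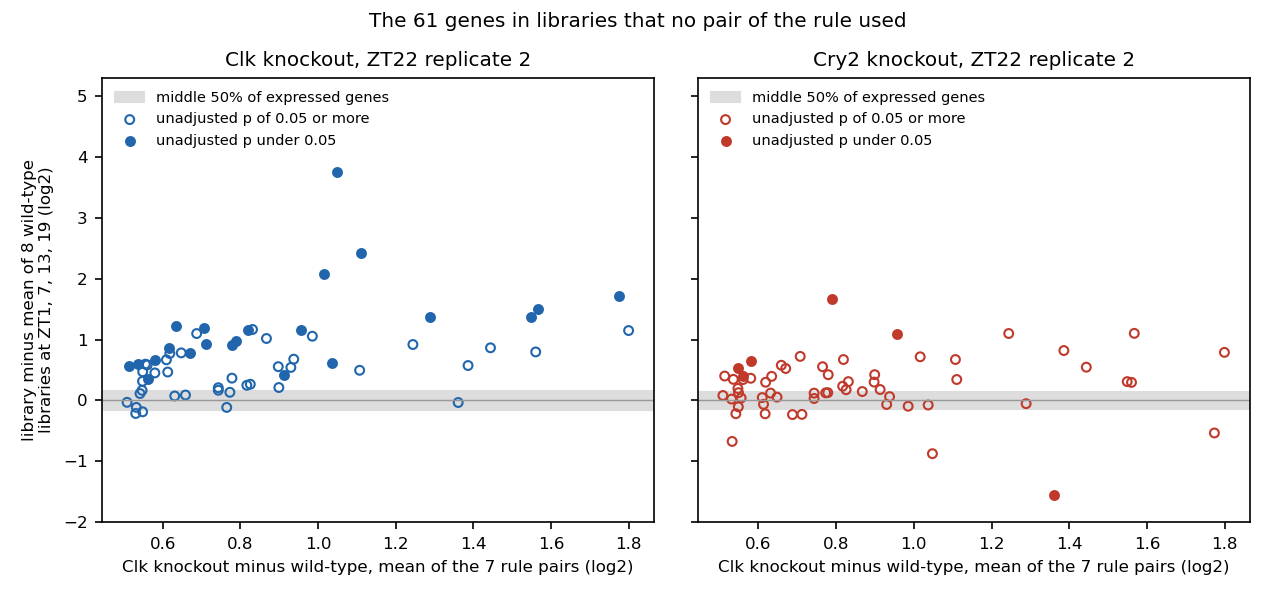
Difference of the ZT22 replicate 2 library of each knockout from the mean of 8 wild-type libraries (vertical axis, log2) against the mean of the 7 rule pairs in *Clk* knockouts (horizontal axis, log2), 1 point per gene. Filled points have an unadjusted limma p under 0.05 and the grey band holds the middle 50% of all expressed genes. In *Clk* knockouts (left) 55 of 61 genes lie above 0, and in *Cry2* knockouts (right) 47 of 61.

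Genomic position was not used by the rule. The 61 genes lie on 44 scaffolds of assembly v3, and 27 share their scaffold with another of them. In the order of all annotated genes, 6 are next to another of the 61, in 3 pairs of neighbours. In the order of expressed genes 8 of the 61 are (13.1%), and these 8 make up 0.0768% of the expressed genes. The share to set beside 13.1% is that of all expressed genes lying next to one of the 61, which was 1.04%. These counts have no test, and those of 27 and 6 have no background share.

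The genes DPOGS211513, DPOGS211512, DPOGS211510 and DPOGS211509, form 2 of these pairs of neighbours on scaffold DPSCF300354, between positions 85770 and 106774, with 1 gene between the pairs. All 4 lay higher in *Clk* knockouts and near wild-type in *Cry2* knockouts. DPOGS211513 had 7.85, 19.2 and 32.4 FPKM in wild-type (lowest, median and highest), 31.7, 56.0 and 98.8 in *Clk* knockouts and 15.0, 21.6 and 34.1 in *Cry2* knockouts. In FPKM, only *Clk* knockout ZT4 replicate 1, the library with the low median, lay within the wild-type range. On centred values it lay above that range, at 1.17 against a wild-type maximum of 0.85.

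DPOGS211510 had 17.4, 24.5 and 28.9 FPKM in wild-type, 24.6, 52.3 and 61.2 in *Clk* knockouts and a median of 20.6 in *Cry2* knockouts. DPOGS211512 had 9.80, 13.5 and 16.2 in wild-type, 15.2, 25.3 and 31.9 in *Clk* knockouts and a median of 12.8 in *Cry2* knockouts. Again it was ZT4 replicate 1 alone that overlapped with wild-type in both genes in FPKM. On centred values it lay above all wild-type libraries, at 0.44 against a maximum of 0.31 for DPOGS211510 and 0.57 against 0.36 for DPOGS211512. For DPOGS211512 *Clk* knockout ZT22 replicate 2 overlapped on that scale, at 0.3556 against a wild-type maximum of 0.3576. DPOGS211509 was low, with a median of 5 reads, and had 0.626, 2.94 and 5.78 FPKM in wild-type and 3.62, 8.53 and 10.3 in *Clk* knockouts.

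The gene between the pairs, DPOGS211511 (246 bases, named after its values were seen), failed the rule in 1 pair, with differences from -0.37 to 1.98 and a mean of 1.02. It had 64.8, 105 and 179 FPKM in wild-type and 107, 224 and 334 in *Clk* knockouts. The neighbours on both sides are also named after their values were seen. DPOGS211519 had 141, 159 and 260 FPKM in wild-type and 127, 149 and 159 in *Clk* knockouts. DPOGS211520, which lies between it and the block, was under 1 FPKM on average in every genotype. On the other side DPOGS211508 had a mean of 9.04 in wild-type and 11.3 in *Clk* knockouts, with a single high library, ZT22 replicate 2, at 27.9 FPKM.

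In the library that no pair of the rule used, the 4 genes of the scaffold differed from wild-type by 1.51 (standard error 0.61) for DPOGS211513, 0.42 (0.17) for DPOGS211512, 0.62 (0.21) for DPOGS211510 and 0.57 (0.49) for DPOGS211509. With the spread again taken from the wild-type libraries alone, the unadjusted p was 0.0344, 0.0305, 0.0155 and 0.271 in that order (limma), and the adjusted p was at least 0.307. Gene names and products for this scaffold were not given in the sources used here, and whether its genes are copies of each other was not tested.

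**Figure D5:**
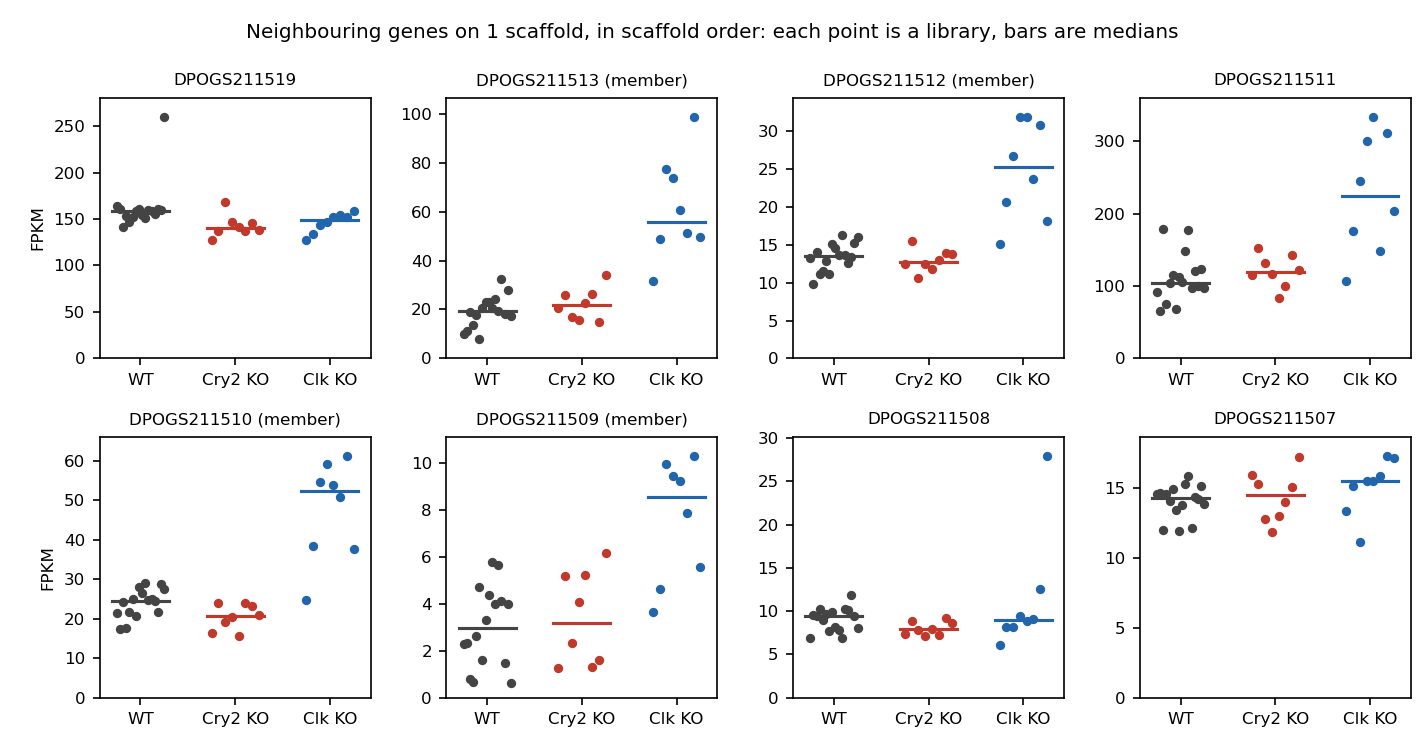
FPKM (vertical axes, each from 0 and with its own scale) of 8 annotated genes of 1 scaffold in their order along it, leaving out DPOGS211520, with 1 point per library, bars at the medians, and the groups wild-type (16 libraries), *Cry2* knockout (8) and *Clk* knockout (8). From DPOGS211513 to DPOGS211509 the *Clk* knockout medians are the highest, which is not seen to that extent in the genes on either side.

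Whether these genes differed between the replicate series, which the labels give as male and female, was tested over all 32 libraries, with each genotype and time as a level of 1 factor. Sex and replicate number cannot be told apart. Of the 61 genes 3 were called (4.92%, background 3.91%). DPOGS203922 had a mean of 48.7 FPKM in replicate 1 and 37.6 in replicate 2 (log2 difference -0.41, standard error 0.08, adjusted p = 0.00299 by limma), and DPOGS201021 had 143 and 114 (-0.37, standard error 0.09, adjusted p = 0.0152). DPOGS206237 was higher in replicate 2, at 6.07 against 4.41 (0.39, standard error 0.10, adjusted p = 0.0401), a call lost in 25 of its alternatives. The count was 5 without *Cry2* knockout ZT10 replicate 1 and also 5 without *Cry2* knockout ZT10 replicate 2. The *Clk* knockout difference itself was not called as different between the replicate series in any gene. This was 0 of 61 and 0 of all genes by limma, and 4 of 61 at an unadjusted p under 0.05 (background 6.12%).

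The 8 *Clk* knockout libraries, at 4 times of day, gave no call of a 24-h rhythm in the 61 genes. This was 0 of 61 by limma (background 0.0096%), with 5 genes at an unadjusted p under 0.05 (background 4.69%), among them DPOGS206384 and DPOGS213468. DPOGS206384 had 13.6, 27.5 and 39.2 FPKM in *Clk* knockouts (lowest, median and highest) and 1.20, 9.19 and 17.6 in wild-type. The fitted range from trough to peak had a median of 0.39 in the 61 genes, against 0.21 over all expressed genes. A fitted range grows with the spread between libraries. The SD over the 8 *Clk* knockout libraries had a median of 0.33 in the 61 genes, against 0.16, and nothing is read from the range.

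The core clock genes went the other way in *Clk* knockouts. Of *Per*, *Tim*, *Cry2*, *Vri* and *Cwo*, 4 were called lower than in wild-type (background 1.73%) and 0 higher, with a median difference of -1.14 on the log2 scale, and *Cry2* was not called. *Per* differed by -2.06 (standard error 0.20), *Tim* (DPOGS214179) by -1.30 (0.14), *Vri* (DPOGS208606), a transcriptional repressor of the *Clk* loop in *Drosophila*, by -1.14 (0.28), and *Cwo* (DPOGS209925), a repressor of CLK-driven transcription in *Drosophila*, was called lower too, at 4.04 to 6.46 FPKM against 4.88 to 25.7 in wild-type. Of 10 chaperone genes and their regulators 0 were called in either direction in *Clk* knockouts, while 5 were called higher in *Cry2* knockouts (background 2.06%). Of 4 genes of carotenoid and retinoid handling 1 was called lower in *Clk* knockouts, with a median difference of -0.16, and 3 were called lower in *Cry2* knockouts (background 2.99%), with a median of -0.45. None of these 19 genes was among the 61, and nothing is read from this. All 19 are in the study's table of rhythmic genes. Their F-test p in the rule was under 0.005, which excludes a gene, in all but DPOGS206382 (*l(2)efl*, 0.00546) and DPOGS212976 (*Pdh*, 0.0108).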

How the data were processed

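Per the methods of the study, TopHat2 placed the 50-bp single-end reads on the monarch genome (assembly v3) with 1 location allowed for each, and the authors deposited Cufflinks FPKM values for every gene and library, each with its 95% interval. Versions of both are not given in the sources used here, and the submitters' processing notes also name CASAVA 1.8.2. The files hold no counts, so count models were not used, and reads behind a value were derived from its interval, which covers counting error only.

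Values were log2(FPKM + 1) minus the library median over 10412 genes with an FPKM of at least 3 in any wild-type library. Comparisons used limma 3.58.1 (lmFit, eBayes with trend) in R 4.3.3 over all these genes with Benjamini-Hochberg adjustment and a threshold of 0.05, with time as a factor between genotypes, and were tested on simulated data. Tables and figures came from matplotlib 3.10.9, scipy 1.17.1, pandas 2.3.3 and numpy 2.4.6 under Python 3.11.15. No set test was run. The members, gene lists and comparisons were chosen with earlier results of these data known.

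Genes were named by rule: the 8 with the largest mean *Clk* difference, the 4 with the highest wild-type mean, those the study annotates, 2 on each side of each limit, neighbours on a scaffold, the 3 with the lowest replicate p, the 3 lowest and 3 highest in *Cry2* knockouts, the 3 lowest in the ZT22 replicate 2 pair, and 5 clock genes. The gene table at hand matched 0 identifiers of the files, so that no further names, sequences or promoter motifs are given. Nothing says beyond the labels that replicates came from separate rearings, and p-values measure the spread between these pools. No 2 libraries held identical values. Alternatives were other scalings, pseudocounts and filters, a replicate block, other wild-type libraries, and each library left out.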

Additional observations from a re-analysis of the deposited data

Results flagged for a closer look

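Among 99 groups of 8 libraries (33 named genes, 3 genotypes, wild-type at the 4 shared times), 13 held a library whose gap to the nearest other was above the 95% critical value of Dixon's test on the centred log2 scale, a limit that chance passes in about 1 group in 20. *Pepck* (DPOGS202573) reached 337 FPKM in *Clk* knockout ZT22 replicate 2, next 62.6, and 124 in *Cry2* knockout ZT10 replicate 2, next 19.8. In wild-type ZT22 replicate 2, DPOGS209220 was low at 167 (next 343), DPOGS203922 was low at 14.8 (next 30.5) and DPOGS203532 was high at 9.79 (next 6.44).

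In *Clk* knockouts, DPOGS206054 was low at 47.6 in ZT4 replicate 2 (next 88.1), DPOGS214315, just outside the limit on the mean, was low at 9.43 in ZT4 replicate 1 (next 15.7), *Per* (DPOGS203908) was high at 5.80 in ZT4 replicate 2 (next 5.46) and *Vri* (DPOGS208606) was high at 23.98 in ZT22 replicate 2 (next 16.2). In *Cry2* knockouts, CG11159 (DPOGS202823) was low at 139 in ZT16 replicate 2 (next 271), DPOGS201513 was low at 5.37 in ZT22 replicate 1 (next 10.2), and in ZT16 replicate 1 DPOGS213468 was high at 6.34 (next 4.97) and DPOGS203532 was high at 7.997 (next 6.35). The next value is not always the nearest in FPKM, since gaps were measured on centred values.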

How the results depend on the processing

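The number of genes that the rule gives, 61, was 37 on deposited FPKM without centring (33 of the 61 among them) and 35 with a filter of 10 FPKM, where 18 rather than 36 were called against wild-type. Without centring, 50 of the 61 genes were above 0 in the ZT4 replicate 1 pair and 57 to 61 in every other pair. Under the other alternatives the rule gave 52 to 88 genes, with quantile normalization 54 (52 of the 61), with all 8 pairs 66 (48 of the 61), and 59 to 90 without each pair in turn. Without each library in turn, calls against wild-type ranged from 26 to 43, calls in the *Clk* knockout library outside the rule from 0 to 1, and calls between replicates from 2 to 5. In the *Clk* knockout library outside the rule, DPOGS204654 was 0.0294 and DPOGS205977 0.0265 on deposited FPKM, DPOGS205977 was 0.18 and DPOGS209220 0.11 against the 4 female wild-type libraries only, and DPOGS209220 was 0.0242 with wild-type ZT22 replicate 2 added, all slightly above 0 in place of below. Without each wild-type library in turn, DPOGS204654 ranged from -0.12 to 0.0467 and DPOGS205977 from -0.11 to 0.0936. The cause was not tested.

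Replicate numbers match libraries by sex per the labels, but over expressed genes little pairing of the samples was seen. The differences of replicate 2 from replicate 1 correlated between wild-type and *Clk* knockouts by -0.018, -0.0041, 0.152 and 0.0554 at ZT4, ZT10, ZT16 and ZT22. With the replicate block 44 rather than 36 genes were called against wild-type, and 0 for a rhythm in *Clk* knockouts.

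Depth limits the genes with under 10 reads, and FPKM of loci under 400 bases rest on uncertain effective lengths.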
